A study of Mus musculus with 9 samples.

Results

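Small leucine-rich proteoglycans (SLRPs) are secreted matrix proteins, and 8 of their genes were followed here in spermatogonial stem cells (SSCs) during co-culture with testicular somatic cells. The genes, Bgn, Dcn, Aspn, Fmod, Prelp, Lum, Omd and Ogn, were taken by name from the 46078 genes in the count data. They were selected on the family and on the late rise of Fmod in CPM over the 9 libraries, with their values known, so the Fmod time course and every 48 h against 24 h value below are descriptions without a test. The 9 RNA-seq libraries came from EGFP-SSCs, a mouse SSC line of genotype WT that carries green fluorescent protein. At 0 h, 3 biological replicates came from normal culture on mouse embryonic fibroblasts treated with mitomycin C. The other libraries, 3 at 24 h and 3 at 48 h, came from EGFP-positive cells sorted by flow cytometry after co-culture, in equal proportion, with testicular somatic cells of mice exposed to busulfan, taken 3 to 7 days after birth. That co-culture medium held KSR, BMP-4/7, retinoic acid, activin A, testosterone, FSH and BPE. Time, somatic cells, medium and, as described, the fibroblast feeder thus changed together and cannot be told apart. Whether the 0 h cells were sorted too is not stated. All groups were 1 cell line, and the replicates measure the spread between its cultures.

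SLRPs share a small core protein built of leucine-rich repeats, to which chondroitin, dermatan or keratan sulfate chains can be attached. Most of them bind collagen and influence how fibrils assemble and how thick they become, and several also bind growth factors such as TGF-beta. They are typical products of fibroblasts and other mesenchymal cells. In the testis such cells lie outside the germ cells, in the interstitium and in the peritubular wall. By sequence the family falls into classes: decorin (Dcn), biglycan (Bgn) and asporin (Aspn) in class I, fibromodulin (Fmod), lumican (Lum), PRELP and osteomodulin (Omd) in class II, and osteoglycin (Ogn) in class III.

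The SLRP genes lie in groups on the chromosomes (GENCODE M21, GRCm38). Aspn, Omd and Ogn follow each other on chromosome 13 with Ecm2, within 119.7 kb, and all of them lie inside Cenpp, a centromere protein gene on the opposite strand. Dcn and Lum are neighbours on chromosome 10, Prelp and Fmod lie 115839 bases apart on chromosome 1, and Bgn is on chromosome X. RefSeq gave the bases before the start of 6 of the 8 genes (Bgn, Aspn, Fmod, Prelp, Omd and Ogn; GRCm38.p6). The 150 bases before the start of 4 of them are shown, 5′ to 3′ on the gene's strand, because these genes carry the results below: Fmod and Prelp had the most alike time courses within the group, Bgn was the most abundant, and Ogn stands for the chromosome 13 genes. Capitals mark matches to the motifs searched.
Fmod: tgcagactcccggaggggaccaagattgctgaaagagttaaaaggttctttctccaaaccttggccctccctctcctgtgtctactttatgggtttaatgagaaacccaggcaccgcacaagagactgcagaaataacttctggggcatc
Prelp: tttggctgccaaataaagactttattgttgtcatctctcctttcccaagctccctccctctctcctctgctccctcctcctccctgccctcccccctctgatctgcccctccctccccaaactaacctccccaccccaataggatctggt
Bgn: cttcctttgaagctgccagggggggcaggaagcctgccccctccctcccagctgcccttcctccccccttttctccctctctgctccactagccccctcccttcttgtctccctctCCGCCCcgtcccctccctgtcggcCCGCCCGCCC
Ogn: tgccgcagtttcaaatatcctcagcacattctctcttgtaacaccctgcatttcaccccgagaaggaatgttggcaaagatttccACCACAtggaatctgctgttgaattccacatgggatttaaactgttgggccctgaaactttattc
The windows are chr1:134037104-134037253 on the plus strand for Fmod, chr1:133921402-133921551 on the minus strand for Prelp, chrX:73483451-73483600 on the plus strand for Bgn and chr13:49607865-49608014 on the plus strand for Ogn. The TATA box was searched as TATAAA on the given strand only, and the other motifs on both strands. The GC box was spelled GGGCGG. The RUNX site was spelled TGTGGT. The AP-1 site was spelled TGANTCA. The CArG box, a motif of smooth muscle genes, is given by its name alone. Bgn held 3 GC box matches, all read from the opposite strand and of which 2 overlap, and Ogn held 1 RUNX site match 65 to 60 bases before its start. The windows of Fmod, Prelp, Aspn and Omd held no match. Of 32817 windows of the same length before mouse genes, 28.6% held the GC box letters, 8.4% the RUNX letters, 4.85% the TATA box letters, 4.24% the AP-1 letters and 0.917% the CArG box. The Bgn window was also the richest in G and C of the 6, at 70.0%, against 33.3% for Aspn.

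Library totals ran from 16825251 to 22201892 counts. The germ cell identity of the libraries was visible at every time: 8 germ cell markers summed to 2206 ± 511 CPM (normalized counts scaled to a common library size by TMM; SD, n = 3) at 0 h, 2143 ± 126 CPM at 24 h and 2139 ± 116 CPM at 48 h. Genes of low GC content set some libraries apart. Over the genes with at most 40% GC (1039 to 1092 genes per group), the median log2 difference of 0 h replicate 1 from the other 0 h libraries was 0.863, and that of 0 h replicate 3 was -0.999. At 48 h, replicate 2 stood at -0.407, while the 24 h libraries lay between -0.25 and 0.137. Aspn (34.3% GC), Omd (36.1%), Ogn (36.3%) and Dcn (37.4%) fall in this range, Lum is at 41.9%, and Bgn, Fmod and Prelp lie between 51.2% and 53.8%. The tests of Dcn, Aspn, Lum and Ogn are therefore also given without these libraries.

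The summed level of the 8 genes was higher at each later time, and Bgn made up most of it. As CPM per kilobase of exons, the sum was 12.2 ± 2.8 at 0 h, 34.9 ± 5.4 at 24 h and 61.8 ± 10.7 at 48 h (SD, n = 3). Bgn made up 60.7% of this sum at 0 h, 74.8% at 24 h and 67.1% at 48 h. The share of Dcn went from 25.3% to 14.4% and 13.4%, and that of Fmod from 0.569% to 1.47% and 5.79%. Per length, Bgn and then Dcn were the highest genes of the group throughout, without overlap between their libraries or with the next gene. Fmod ranked 7 of 8 per length at 0 h, where it overlapped Ogn and Omd, and 4 of 8 at 48 h, where it overlapped only Aspn among its neighbours in the order and lay above Prelp in every library. The level of Bgn depends on the gene length used, 41.3 CPM per kilobase at 48 h over all exons and 94.4 over the longest transcript.

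**Figure D1:**
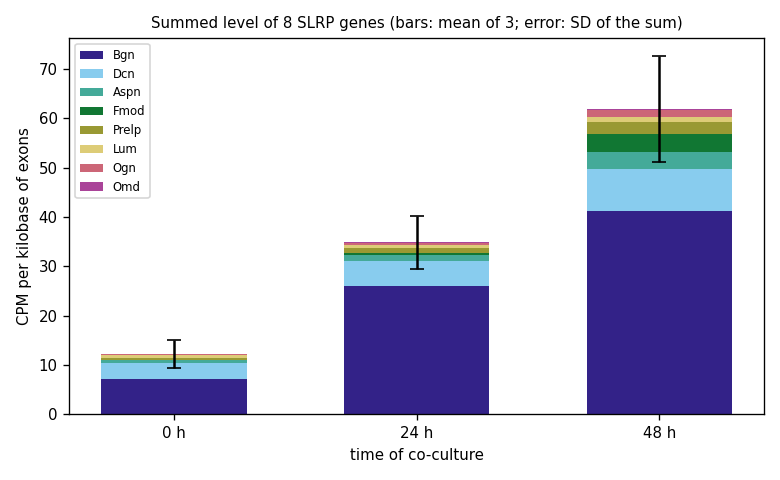
Summed level of the 8 SLRP genes in CPM per kilobase of exons (y axis) at 0, 24 and 48 h (x axis); each coloured segment is the mean of 3 libraries for 1 gene and the error bar is the SD of the sum. The sum goes from 12.2 to 34.9 and 61.8, and Bgn is the largest segment at each time.

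Tests used the quasi-likelihood test of edgeR with Benjamini-Hochberg adjustment over all genes, and a gene is called where the adjusted p is at most 0.05. At 24 h against 0 h, 11.4% of the 17592 genes tested were called higher and 14.2% lower. Of the 8 SLRP genes, Omd did not pass the filter on low counts, Fmod was not tested, and Ogn passed the filter only through its later libraries, so it is left out of the counts here. Of the other 5 genes, 2 were called higher (Bgn and Prelp) and none lower. At 48 h against 0 h, 13.0% of 17755 genes were called higher and 18.5% lower, and 4 of the same 5 genes were called higher (Bgn, Dcn, Aspn and Prelp) and none lower. At 48 h against 24 h, 8.61% of 17499 genes were called higher and 12.7% lower. The 7 SLRP genes past the filter all had a fitted difference above 0, and no test is given. This count of signs is not comparable with the shares called. The median log2 fold change over all genes was -0.0045 there, so their signs were about evenly split. The comparisons with 0 h use the same 3 control libraries. The shares called over all genes are the background for each list count below. The median log2 fold change over all genes was 0.005 at 24 h and 0.017 at 48 h. Libraries of 2 times often did not overlap. At 24 h against 0 h, 21.2% of all genes tested had every later library above every earlier one, and 22.2% had every one below. At 48 h against 0 h these shares were 22.9% and 25.4%. At 48 h against 24 h, 3259 of 17499 genes were higher without overlap and 3669 lower. A lack of overlap in a single gene below is therefore a description of a common pattern.

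**Figure D2:**
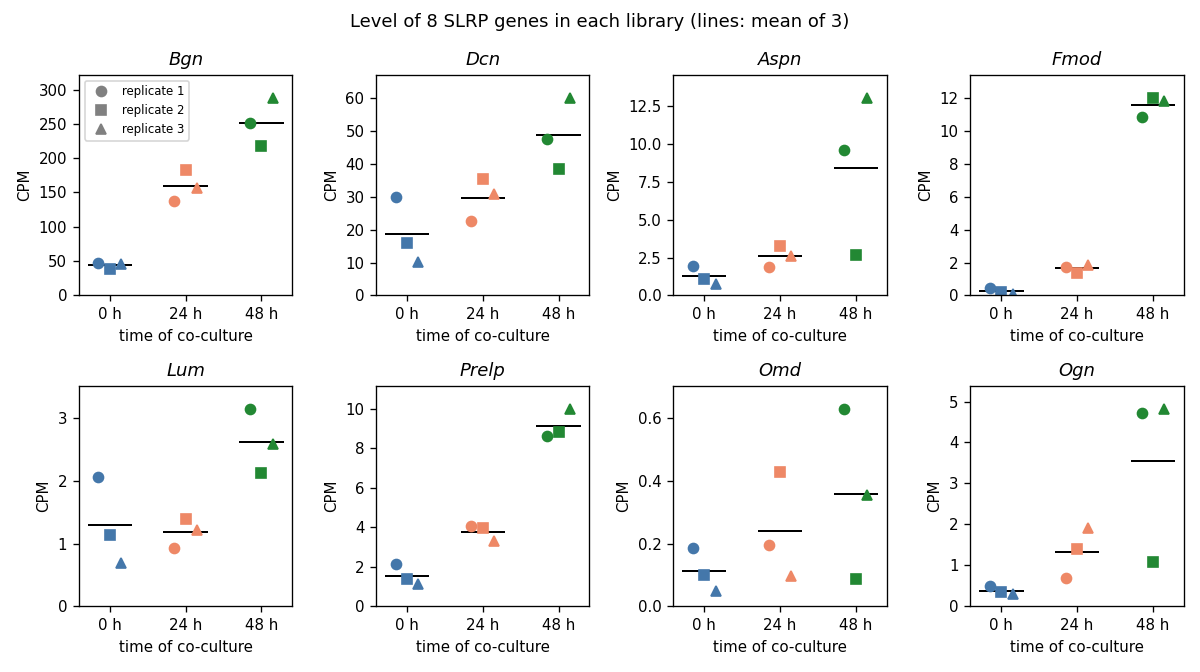
CPM of each SLRP gene (y axis, linear and scaled per gene) in the 9 libraries at 0, 24 and 48 h (x axis); marker shape gives the replicate and the black line the mean of 3. Fmod, Prelp and Bgn form 3 separate levels, while replicate 2 at 48 h is low for Aspn, Ogn and Omd.

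Biglycan, which binds collagen and TGF-beta and acts as a danger signal when released from the matrix, was the most abundant of the group. Bgn was at 46.7, 38.8 and 46.2 CPM in the 0 h libraries (replicates 1 to 3), at 137, 183 and 157 CPM at 24 h, and at 251, 218 and 287 CPM at 48 h. Every 24 h library was above every 0 h library and below every 48 h library, and in each comparison many other genes also lacked overlap, as given above. The log2 fold change was 1.87 ± 0.14 (SE) at 24 h (edgeR, adjusted p = 0.00014) and 2.52 ± 0.14 at 48 h (adjusted p = 3.16e-05). The later step, 48 h against 24 h, was smaller, with a log2 difference of 0.65 ± 0.12. No alternative ended the Bgn calls at 24 h and 48 h.

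Decorin, the prototype of the family, carries a chondroitin or dermatan sulfate chain, limits collagen fibril thickness and binds TGF-beta. Dcn was at 30.0, 16.1 and 10.2 CPM at 0 h, at 22.7, 35.4 and 30.7 CPM at 24 h, and at 47.5, 38.5 and 59.8 CPM at 48 h. The 0 h libraries spanned a wider range relative to their mean than the later ones, and 0 h replicate 1 lay above 24 h replicate 1. The 24 h difference did not pass the test (log2 fold change 0.67 ± 0.37, edgeR adjusted p = 0.243). At 48 h Dcn was higher by 1.37 ± 0.38 on the log2 scale (edgeR adjusted p = 0.0301), and all 48 h libraries lay above all 0 h libraries. This call was lost without 0 h replicate 2, 48 h replicate 1, 48 h replicate 2 or 48 h replicate 3 (adjusted p 0.106, 0.0825, 0.0553 and 0.102). At 24 h the difference was 1.19 without 0 h replicate 1 (adjusted p = 0.0113), the library with the highest low-GC genes, and 0.40 without 0 h replicate 3 (adjusted p = 0.31), the one with the lowest. At 48 h these values were 1.89 (adjusted p = 0.00131) and 1.10 (adjusted p = 0.0235). With GC and length offsets in the fit the 24 h difference was 0.73 (adjusted p = 0.00275).

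Asporin has a run of aspartic acids in place of the glycosaminoglycan attachment region and binds collagen and TGF-beta. Aspn was at 1.93, 1.09 and 0.748 CPM at 0 h, at 1.87, 3.26 and 2.64 CPM at 24 h, and at 9.64, 2.69 and 13.0 CPM at 48 h. The 48 h libraries were uneven, since replicate 2 lay within the 24 h range and the other two well above it. Aspn was higher at 48 h than at 0 h by 2.75 ± 0.62 on the log2 scale (edgeR adjusted p = 0.0136), and by 3.17 without 48 h replicate 2 (adjusted p = 0.00414), but without 0 h replicate 2 the adjusted p was 0.0609. At 24 h the difference of 1.06 ± 0.40 was not called (edgeR adjusted p = 0.098). It was 1.50 without 0 h replicate 1 (adjusted p = 0.0215), 0.83 without 0 h replicate 3 (adjusted p = 0.136) and 1.21 with GC and length offsets (adjusted p = 0.00944). The 48 h difference was 3.18 without 0 h replicate 1 (adjusted p = 0.0104) and 2.51 without 0 h replicate 3 (adjusted p = 0.026).

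Fibromodulin, a keratan sulfate proteoglycan of tendon and other dense connective tissue, binds type I collagen and takes part in its cross-linking through lysyl oxidase. Fmod had 7, 4 and 2 counts in the 0 h libraries, 35, 26 and 38 at 24 h, and 208, 276 and 234 at 48 h. In CPM these were 0.437, 0.199 and 0.0997 at 0 h, 1.72, 1.39 and 1.86 at 24 h, and 10.9, 12.0 and 11.8 at 48 h. The 3 times did not overlap, and the 48 h libraries were close to each other (SD 0.596 CPM around a mean of 11.6). The mean CPM was 6.76 times higher at 24 h than at 0 h and 7.0 times higher at 48 h than at 24 h. The fitted log2 differences of these steps were 2.79 ± 0.49 and 2.79 ± 0.16. On the log2 scale the 2 steps were thus of like size, and most of the transcript was added in the later one. From 0 h to 48 h the mean was 47.3 times higher, a ratio that rests on 0 h levels of at most 7 counts per library. Fmod spans chr1:134037254-134048277 on the plus strand, with 3 exons and 53.7% GC in its longest transcript.

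PRELP, a heparin-binding member of the same class that is thought to anchor basement membranes to connective tissue, moved most like Fmod. Prelp was at 2.12, 1.39 and 1.15 CPM at 0 h, at 4.08, 3.96 and 3.32 CPM at 24 h, and at 8.65, 8.82 and 9.98 CPM at 48 h. As for Fmod, the 3 times did not overlap. Prelp was higher than at 0 h by 1.31 ± 0.29 on the log2 scale at 24 h (edgeR adjusted p = 0.0158) and by 2.56 ± 0.26 at 48 h (adjusted p = 0.000422). The log2 difference between 48 h and 24 h was 1.26 ± 0.15. The 24 h call was lost without 0 h replicate 2, 24 h replicate 1 or 24 h replicate 2 (adjusted p 0.055, 0.0686 and 0.0639). Prelp shares 350 exon bases with the antisense gene Gm15851, which had at most 4 counts in any library.

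Lumican, a keratan sulfate proteoglycan known from the transparent cornea and common in fibroblasts, had the smallest fitted difference at 24 h of the 7 genes past the filter. Lum was at 2.06, 1.14 and 0.698 CPM at 0 h, at 0.934, 1.39 and 1.22 CPM at 24 h, and at 3.14, 2.13 and 2.58 CPM at 48 h. The 24 h libraries lay inside the 0 h range, and the lowest 48 h library was 1.03 times the highest 0 h library. The log2 fold change was -0.11 ± 0.44 at 24 h (95% interval -0.97 to 0.75, edgeR adjusted p = 0.89) and 1.02 ± 0.41 at 48 h (adjusted p = 0.101). Neither was called. The 48 h difference was 1.50 without 0 h replicate 1 (adjusted p = 0.0151), 0.75 without 0 h replicate 3 (adjusted p = 0.141), 1.14 without 48 h replicate 2 (adjusted p = 0.147) and 0.81 with GC and length offsets (adjusted p = 0.0497). At 24 h it was 0.37 without 0 h replicate 1 (adjusted p = 0.522) and -0.39 without 0 h replicate 3 (adjusted p = 0.481). Between 24 h and 48 h the libraries did not overlap, at a log2 difference of 1.13 ± 0.27.

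Osteomodulin, a keratan sulfate proteoglycan of bone matrix, was close to undetected. Omd had 3, 2 and 1 counts at 0 h, 4, 8 and 2 at 24 h, and 12, 2 and 7 at 48 h. The libraries of the 3 times overlapped, and the gene did not pass the filter in any comparison. The 24 h mean was 1.49 times, and the 48 h mean 2.2 times, the level that 3 counts per library would give at 0 h. Since the libraries overlapped at so few counts, these ratios set no minimum for a difference.

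Osteoglycin, also called mimecan, is a small class III member found in bone, vessels and other connective tissue. Ogn was at 0.499, 0.347 and 0.299 CPM at 0 h, at 0.688, 1.39 and 1.91 CPM at 24 h, and at 4.72, 1.09 and 4.81 CPM at 48 h. All later libraries lay above all 0 h libraries, but 48 h replicate 2 fell within the 24 h range. The fitted log2 difference was 1.81 ± 0.48 at 24 h (edgeR adjusted p = 0.0292) and 3.20 ± 0.63 at 48 h (adjusted p = 0.0077). In both comparisons Ogn, with 6 to 8 counts per library at 0 h, passed the filter only through the later libraries, which favours a difference, so these values are not counted as support. The 24 h call was lost without 0 h replicate 2, 0 h replicate 3, 24 h replicate 2 or 24 h replicate 3 (adjusted p 0.0972, 0.0525, 0.095 and 0.115), and in the fit of all 9 libraries (adjusted p = 0.0638). Without 0 h replicate 1 the values were 2.03 at 24 h (adjusted p = 0.0333) and 3.41 at 48 h (adjusted p = 0.011). The 48 h difference was 3.07 without 0 h replicate 3 (adjusted p = 0.0176), 3.63 without 48 h replicate 2 (adjusted p = 0.00131) and 2.75 with GC and length offsets (adjusted p = 0.00169).

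**Figure D3:**
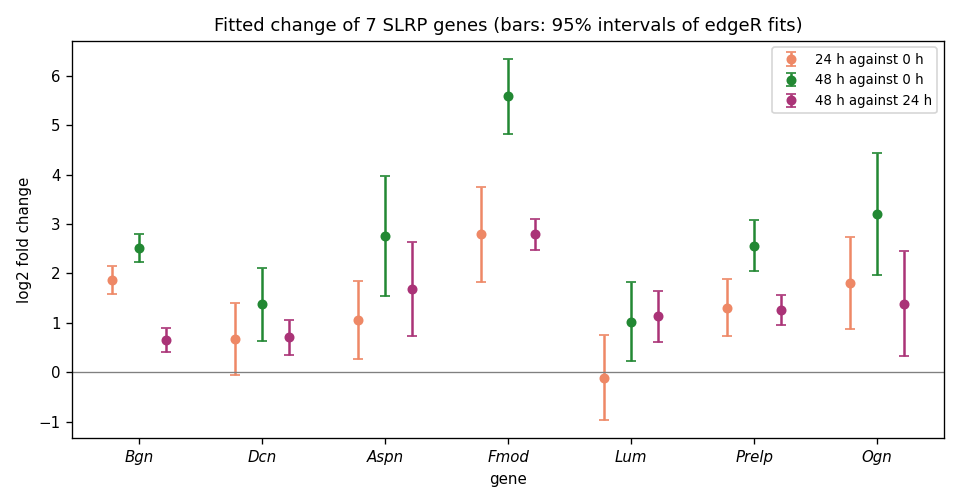
Log2 fold change (y axis) of the 7 SLRP genes past the filter (x axis) in each comparison; points are edgeR estimates and bars their 95% intervals, and the 48 h against 24 h values and all Fmod values are descriptions. Bgn has its larger step by 24 h (1.87 against 0.65), Fmod has like steps of 2.79, and Lum is near 0 at 24 h.

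Of 9 further SLRP genes (Ecm2, Kera, Epyc, Optc, Chad, Nyx, Tsku, Podn and Podnl1), 5 were tested at 24 h and 6 at 48 h against 0 h, and 0 were called by edgeR in either direction. At an unadjusted p under 0.05 edgeR gave 1 gene at each time (Tsku), and DESeq2, which called 0, gave 1 (Tsku at 24 h, Epyc at 48 h). The most abundant of them, Tsku, encodes a secreted regulator of growth factor signalling and had a log2 fold change of -0.37 ± 0.14 at 24 h (edgeR adjusted p = 0.104) and -0.38 ± 0.15 at 48 h (adjusted p = 0.103). Optc, next to Prelp on chromosome 1, was at 1.81 ± 0.34 CPM at 0 h and 2.32 ± 0.05 CPM at 48 h (SD, n = 3; log2 fold change 0.36 ± 0.24, edgeR adjusted p = 0.317). Kera had at most 1 count in any library.

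In 48 h replicate 2, the genes of the chromosome 13 group were low together, a pattern seen after the values were known. Relative to the mean of 48 h replicates 1 and 3, this library had 0.238 of the Aspn level, 0.228 of Ogn, 0.177 of Omd and 0.0306 of Ecm2 (1 count, against 30 and 25). Cenpp, within which the group lies on the opposite strand and which shares 7 exon bases with Aspn, was at 0.954, and the neighbour Nol8 at 0.446. Elsewhere Dcn was at 0.717, Lum at 0.744, Bgn at 0.809, Prelp at 0.947 and Fmod at 1.05. Of 17397 genes with at least 0.5 CPM at 48 h, 3.2% were under 50% of both other libraries in this one, and of the 1092 among them with at most 40% GC, 22.7% were. GC content thus moved with this difference, while its part in it was not tested for single genes. Aspn, Ogn, Omd and Ecm2 lay below the lower quartile of all genes of like GC, as did Bgn (-0.31 on the log2 scale), Podn (-0.50) and Podnl1 (-0.90), while Dcn lay within the quartiles.

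**Figure D4:**
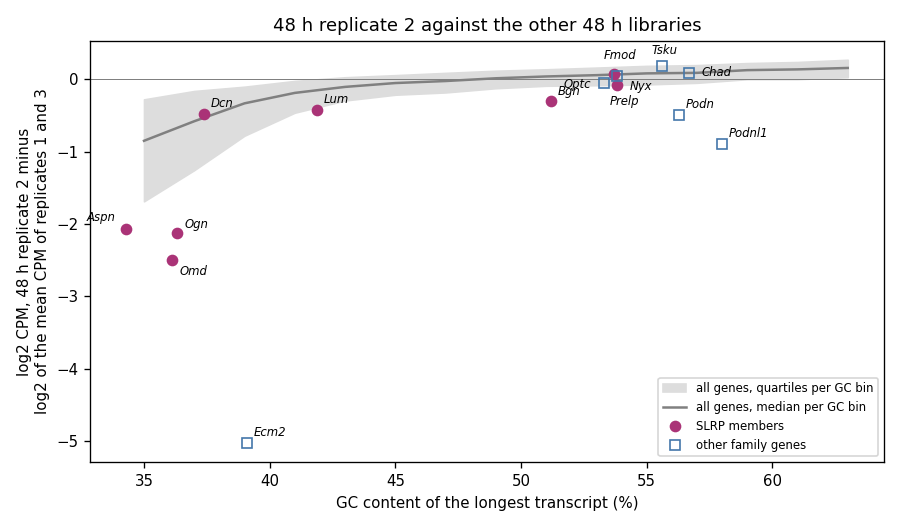
GC content of the longest transcript in percent (x axis) against the log2 CPM of 48 h replicate 2 minus the log2 of the mean CPM of 48 h replicates 1 and 3 (y axis); the grey line and band are the median and quartiles of all genes in bins of 2% GC, filled circles the 8 SLRP genes and open squares other family genes. Aspn (-2.07), Ogn (-2.13), Omd (-2.50) and Ecm2 (-5.03) lie furthest below the band, and Fmod (0.08) and Prelp (-0.08) lie near 0.

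Markers of several other cell types differed between the times. The sum of 14 fibroblast and stromal markers was 792 to 933 CPM at 0 h, 2873 to 3302 CPM at 24 h and 3966 to 4280 CPM at 48 h, and edgeR called 9 of the 14 higher at 24 h, 11 higher at 48 h and 2 lower in each comparison. The most abundant, Col1a1, went from a mean of 157 to 1112 and 1404 CPM, and Fn1 from 467 to 616 and 887 CPM. The 7 peritubular myoid markers summed to 48.3 to 65.4, 170 to 231 and 287 to 342 CPM at 0, 24 and 48 h, with 5 higher and 1 lower at both times, led by Acta2 at a mean of 1.98, 98.0 and 168 CPM. Of the Sertoli markers 9 of 10 were tested, and 6 were called higher at each time and 3 (24 h) or 2 (48 h) lower, with summed levels of 48.7 to 58.1, 68.7 to 106 and 102 to 118 CPM. The 6 Leydig markers summed to 4.49 to 6.80, 24.6 to 38.6 and 25.2 to 32.6 CPM, with 2 of 3 tested genes higher at 24 h and 3 of 3 at 48 h. Endothelial markers (43.5 to 47.6, 15.1 to 19.7 and 13.1 to 13.6 CPM; 2 higher and 2 lower of 5 at each time) and macrophage markers (15.6 to 18.3, 6.47 to 10.4 and 6.45 to 9.22 CPM; 1 higher and 1 lower of 3 at 24 h, 0 and 1 at 48 h) had lower sums in co-culture. Of the germ cell markers 1 of 8 was called higher at 24 h and 1 lower, and none higher and 2 lower at 48 h. Tcf21, Fshr, Hsd3b1, Insl3, Emcn and C1qa were at 0 in all 0 h libraries. The genes called higher included Tcf21 and Hsd3b1, and also Actg2 (0.0706 CPM at 0 h), Amh (0.133), Cldn11 (0.278) and Dhh (0.0539). They further included Cyp11a1 (0.494), Cnn1 (0.3275), Tie1 (0.212) and Csf1r (0.295). Such genes passed the filter only through the later libraries, which favours a difference. Their calls are not counted as support, though these genes are in the counts above. The Leydig genes called at 24 h, Cyp11a1 and Hsd3b1, are all of this kind. In bulk samples like these, the number of cells of a type and the RNA of each cell cannot be told apart, and the part of such cells in the SLRP levels was not tested.

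Relative to the stromal markers, the SLRP genes took different courses. Per 1000 CPM of these 14 markers, Bgn was at 49.0 to 51.9 CPM at 0 h, 47.3 to 55.4 at 24 h and 54.8 to 72.4 at 48 h, so its 0 h range lay inside its 24 h range. Dcn was at 11.4 to 32.2, 7.83 to 10.7 and 9.70 to 15.1, and the 24 h libraries lay below all 0 h libraries. Lum also stood lower in co-culture, at 0.783 to 2.21, 0.322 to 0.425 and 0.536 to 0.735. Prelp was at 1.29 to 2.27, 1.16 to 1.41 and 2.02 to 2.52, with overlap of 0 h with both other times. Fmod was at 0.112 to 0.468 at 0 h, 0.421 to 0.646 at 24 h and 2.55 to 3.02 at 48 h, so its 48 h libraries stood apart from the 24 h ones on this scale too. Relative to the peritubular myoid markers, the Dcn libraries of 0 h and 24 h overlapped. Per 1000 CPM of these, Dcn was at 155 to 621 CPM at 0 h and 133 to 180 at 24 h. On that scale Lum still stood lower in co-culture. Fmod at 48 h (31.9 to 41.75) still stood apart from 24 h (7.06 to 10.1). With 3 libraries against 3, an exact permutation test cannot go below p = 0.1, and none was run on these ratios.

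**Figure D5:**
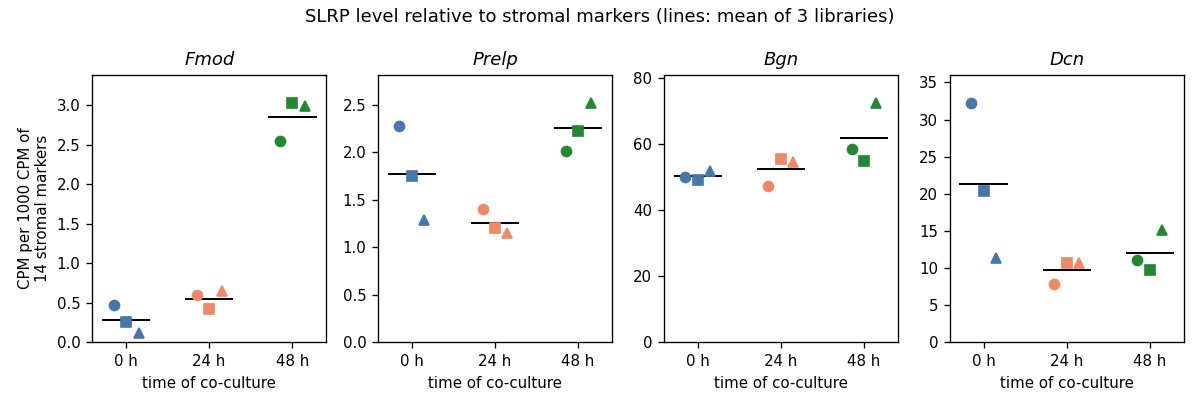
CPM per 1000 CPM of the 14 fibroblast and stromal markers (y axis, scaled per gene) for Fmod, Prelp, Bgn and Dcn in each library at 0, 24 and 48 h (x axis); circles, squares and triangles are replicates 1, 2 and 3 and the black line is the mean. The mean of Fmod goes from 0.277 to 0.554 and 2.85, and that of Bgn from 50.3 to 52.4 and 61.9.

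Of 12 collagen genes listed as partners of SLRPs, not all of them fibrillar, edgeR called 10 higher at both times (median log2 fold changes 1.64 and 1.73), with 0 lower. The others, named after their values were seen, were Col5a1 (-0.33 ± 0.14 at 24 h, adjusted p = 0.124, and -0.18 ± 0.14 at 48 h, adjusted p = 0.381) and Col14a1 (-0.25 ± 0.25, adjusted p = 0.527, and 0.06 ± 0.20, adjusted p = 0.863). Col3a1 was higher by 3.39 ± 0.15 on the log2 scale at 24 h (edgeR adjusted p = 1.59e-05) and 3.81 ± 0.14 at 48 h (adjusted p = 8.37e-06). Col12a1, which decorates fibril surfaces, was higher by 3.73 ± 0.20 at 48 h (edgeR adjusted p = 2.28e-05).

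Of the enzymes that process collagens and SLRPs, 10 of 15 tested were called higher at 24 h and 12 of 15 at 48 h, and 0 lower (median log2 fold changes 1.41 and 1.86). The 10 and the 12 include Adamts5 (0.631 ± 0.375 CPM at 0 h, SD), and the 12 include Mmp13 (0.208 CPM). These genes passed the filter only through the later libraries, which favours a difference. Bmp1, the protease that trims procollagen and the biglycan and osteoglycin precursors, was higher by 2.15 ± 0.12 at 24 h (edgeR adjusted p = 3.61e-05). Lox, which cross-links collagen, went from 37.6 ± 19.7 CPM at 0 h to 322 ± 47 CPM at 48 h (SD, n = 3; log2 fold change 3.10 ± 0.36, edgeR adjusted p = 0.000775). Adamts5, a protease of aggrecan and other proteoglycans, had a fitted difference of 3.79 ± 0.41 at 48 h (edgeR adjusted p = 0.000546). For the reason given, this value is not counted as support.

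Calls among the enzymes that build the sugar chains went in both directions. Of 8 keratan sulfate genes, 7 passed the filter at 24 h and 8 at 48 h. In either comparison edgeR called 1 higher and 4 lower. Chst1, a sulfotransferase for keratan sulfate, was lower by -1.30 ± 0.13 on the log2 scale at 24 h (edgeR adjusted p = 0.000436) and -1.96 ± 0.14 at 48 h (adjusted p = 9.19e-05). B3gnt7, which extends keratan sulfate chains, was higher by 1.21 ± 0.15 at 24 h (edgeR adjusted p = 0.00114). Of 15 chondroitin and dermatan sulfate genes, 2 passed the test as higher and 1 as lower at 24 h, against 4 and 2 at 48 h. Chsy3, a chondroitin synthase, went from 0.232 to 0.737 and 1.01 CPM (48 h log2 fold change 2.09 ± 0.37, edgeR adjusted p = 0.00519). Like Ogn, Chsy3 passed the filter only through the later libraries, so this value is not counted as support, though the gene is in the counts above. Of the 6 genes for the linker that joins chain and core protein, 1 was higher (Xylt1) and 1 lower (Fam20b) at both times.

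Of 12 growth factors and receptors that SLRPs can bind, 11 were tested at 24 h and 12 at 48 h, with 4 called higher and 5 lower at each time. Tgfb3 was higher by 3.43 ± 0.42 at 48 h (edgeR adjusted p = 0.000959), while Tgfb1 went from 97.5 to 20.6 CPM at 24 h (log2 fold change -2.23 ± 0.17, adjusted p = 0.000123). Tlr2, a receptor for free biglycan, had a fitted difference of 2.82 ± 0.49 at 48 h (edgeR adjusted p = 0.00471), from 0.208 to 1.44 CPM. It passed the filter only through the 48 h libraries, which favours a difference, so this value is not counted as support. Tlr2 is among the 4 called higher at 48 h. Tlr4, on the same list, was not called at 48 h (-0.69 ± 0.37, edgeR adjusted p = 0.198). Among 20 other proteoglycan core proteins, 18 were tested against 0 h, with 7 called higher and 1 lower at 24 h and 6 and 2 at 48 h. Vcan, the large chondroitin sulfate proteoglycan versican, was higher by 2.43 ± 0.55 at 48 h (edgeR adjusted p = 0.0137).

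The time courses most like that of Fmod were sought among 15712 genes by Pearson correlation of log2 CPM over the 9 libraries, as a description. The closest were Fbln5 (r = 0.997), a fibulin of elastic fibres, Ube2e3 (0.996), Prelp (0.992), Pam (0.990) and Synrg (0.989). Fbln5 was at a mean of 1.16, 3.03 and 7.56 CPM at 0, 24 and 48 h. Ube2e3 was at 115, 126 and 143 CPM, Pam at 27.2, 37.3 and 56.8 CPM and Synrg at 22.7, 30.4 and 44.7 CPM. The correlation thus compares the shape of the courses, and these changes were much smaller than that of Fmod. Ranked by Spearman's rho, 2 of these 5 genes stayed among the first 5. For the genes below, with 3 named each, 1 of 3 stayed for Dcn and Ogn and 0 of 3 for Bgn, Lum, Prelp and Aspn. From the side of Prelp, C1qtnf3 (0.996), Fmod (0.992) and Thbs2 (0.991) were the closest, and for Bgn these were Ehd2, the matrix protease Mmp2 and Gm14226 (0.993 to 0.996). Aspn had Rnase4, Gm23455 and its chromosome 13 neighbour Ogn (0.964 to 0.984), of which Gm23455 shares all of its sequence with other genes in windows of 75 bases. For Ogn the closest were Gm4070, Gvin1 and Gpr89 (0.967 to 0.989), and 98.3% of Gm4070 and of Gvin1 was shared with other genes, so reads of these cannot be assigned with certainty. Dcn was closest to Setdb2, Bmpr2 and Nbn (0.986 to 0.990) and Lum to Zfp260, Tbc1d15 and Lmbrd2 (0.969 to 0.979). The points share the 3 groups and the low-GC spread of the libraries. Omd was under the level set for this comparison.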

How the data were processed

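The data were poly(A) RNA-seq libraries of EGFP-SSCs, 3 per time point. The paper states that SSCs of different culture stages were sorted for RNA-seq, and does not say whether this included the 0 h cells. The deposited values are counts of reads per gene, to which the authors applied no normalization. Per the labels, fastp, HISAT2, featureCounts and GRCm38 were used, without versions. The library protocol did not mark strand and the strand setting of the counting was not given in the sources used here, so reads of genes on opposite strands that overlap cannot be separated. Symbols, exons and lengths came from GENCODE M21, which held 45229 of 46078 identifiers, and the others had at most 0.121% of a library's counts.

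The members and gene lists were chosen with earlier results of these data known. Each comparison used its 6 libraries, filterByExpr, TMM and edgeR 4.0.16 in R 4.3.3 (quasi-likelihood, two-sided), with Benjamini-Hochberg adjustment over all genes tested and a threshold of 0.05. Levels are CPM with TMM over 9 libraries, or CPM per kilobase of the union of exons. A gene with at most 3 counts in each library of a group was at the floor. Totals ran from 16825251 to 22201892 counts, and no pair of libraries of 1 group agreed within sampling noise.

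Named genes are the SLRP family, up to 3 called genes with the largest change per pathway list and comparison, the 2 most abundant genes of a marker list, markers at 0, and the 3 genes (5 for Fmod) most like each member with at least 0.5 CPM, sought among genes of at least 1 CPM (log2 CPM with a prior count of 2). Nol8, Cenpp and the 48 h replicate 2 pattern were taken up after the values were seen. Alternatives were DESeq2 1.42.0, the replicate number as a block, a shared fit of the 9 libraries, each library left out, scaling by DESeq2 size factors or by library size alone, keeping every gene or requiring 10 counts in every library and, added after seeing the data, GC and length offsets (splines with 5 and 4 degrees of freedom). The fitting was tested on simulated data.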

Additional observations from a re-analysis of the deposited data

How the results depend on the processing

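Of 166 alternative values of tested SLRP differences, 143 kept their direction and side of the threshold, 14 lost a call, 6 gained one and 3 changed sign. The other 124 values, of Fmod and of 48 h against 24 h, had no test and kept their direction. With GC and length offsets, the 48 h against 24 h difference of Dcn was 0.382 in place of 0.705. That of Aspn was 1.19 in place of 1.69, that of Ogn 0.983 in place of 1.39, and that of Lum 0.933 in place of 1.13. Those of Fmod (2.88), Prelp (1.36) and Bgn (0.687) were slightly larger than in the main fit. Genes called numbered 4494 at 24 h, 5602 at 48 h and 3732 between them. All 9 libraries in 1 fit gave 1043 for 48 h against 24 h, and leaving out each library gave 2607 to 6023, 3471 to 7116 and 1857 to 4356. The cause was not tested. SLRP genes called at 24 h, Ogn included, numbered 3, but 5 with GC and length offsets and 1 to 5 with a library left out (1 without 0 h replicate 2 or 24 h replicate 2, and 5 without 0 h replicate 1). At 48 h, Ogn included, they numbered 5, and 3 to 6 with a library left out (3 without 0 h replicate 2). Calls over all genes moved the same way. At 24 h, against 4494, they numbered 6193 with GC and length offsets and 5316 without 0 h replicate 1. They numbered 2931 without 0 h replicate 2 and 2607 without 24 h replicate 2. At 48 h, against 5602, they numbered 4011 without 0 h replicate 2. The Lum difference at 24 h changed sign with library size alone (0.000455) and ran from -0.385 to 0.373 with a library left out. Scaling by library size alone shifted the median over all genes by 0.113 (24 h) and 0.11 (48 h) on the log2 scale, and the higher share of calls from 44.5% to 57.1% and from 41.2% to 52.8%. Of 3732 calls between 24 h and 48 h, 40.4% were higher, against 27.3% with all 9 libraries in 1 fit.

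Same-numbered libraries of different times correlated at -0.28 to 0.196, and differently numbered ones at -0.392 to 0.38. These values gave no sign of pairing by replicate number. They cannot exclude it, since the libraries also differ by their low-GC spread. With the replicate number as a block, 3007, 4013 and 2497 genes were called, and Ogn at 24 h was at 1.74 (edgeR adjusted p = 0.095), not called. Among SLRP genes, the block ended no other call. At these depths, Omd (at most 12 counts) could not be tested, and the 0 h levels of Fmod and Ogn rest on at most 8 counts per library, so counting error alone is large there.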
